A study of Homo sapiens with 27 samples.

Results

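Proteases that cut the extracellular matrix, with the inhibitors and the receptor that govern them, were followed in MDA-MB-231 cells through 18 probe sets of 9 genes. These were all probe sets whose platform annotation named MMP1, MMP14, PLAU, PLAUR, TIMP1, TIMP3, ADAMTS1, ADAMTS3 or ADAMTS9 and no other gene, out of 19064 probe sets that named a single gene, for 11963 genes. MMP14 and TIMP3 had 4 probe sets each, PLAUR had 3, PLAU had 2 and the others had 1. MDA-MB-231 is an invasive line from a human breast cancer. The cells were grown with serum and given DMSO, the vehicle, or 5SGlcNAc at 50 µM, or Thiamet-G at 25 µM. 5SGlcNAc inhibits OGT, the enzyme that places O-GlcNAc on proteins inside the cell, and Thiamet-G inhibits OGA, the enzyme that takes it off. Each of the 3 treatments had 3 arrays at 48 h and 1 array at each of 0, 2, 4, 6, 8 and 24 h, which makes 27 arrays. The series' title concerns NRF2 and KEAP1; the question asked here was which of the matrix protease genes differed between the treatments and over time.

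These genes work in linked steps. Urokinase (PLAU) binds its receptor PLAUR at the cell surface and turns plasminogen into plasmin, a broad protease that also activates matrix metalloproteinases. MMP1 is a secreted collagenase that opens fibrillar collagen, and MMP14 is a membrane-anchored metalloproteinase that cuts collagen beside the cell and activates MMP2. TIMP1 and TIMP3 are tissue inhibitors of metalloproteinases, of which TIMP3 stays bound to the matrix and also inhibits ADAM and ADAMTS enzymes. ADAMTS1 and ADAMTS9 cut proteoglycans such as versican, and ADAMTS3 removes the amino-terminal propeptide of procollagen. Invasive breast cancer cells are known for using both the urokinase and the metalloproteinase systems.

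The promoters of PLAU, TIMP3 and MMP14, which fell with 5SGlcNAc, and of PLAUR, the receptor of PLAU, are given as the 250 bases before the start of transcription in RefSeq on GRCh38.p14, 5′ to 3′ on the gene's strand. The table of promoters held 6 of the 9 members, without MMP1, ADAMTS1 and ADAMTS9. Capitals mark every match, on either strand, to the letters searched: TGANTCA for AP-1, TGACNNNGC for the core of the antioxidant response element bound by NRF2, AGGAAG for ETS factors, GGGCGG for SP1 and TATAAA for a TATA box. The stretches shown are chr10:73910882-73911131 on the plus strand for PLAU (the downstream of its 2 starts), chr22:32801455-32801704 on the plus strand for TIMP3, chr14:22836335-22836584 on the plus strand for MMP14 and chr19:43670170-43670419 on the minus strand for PLAUR.
PLAU: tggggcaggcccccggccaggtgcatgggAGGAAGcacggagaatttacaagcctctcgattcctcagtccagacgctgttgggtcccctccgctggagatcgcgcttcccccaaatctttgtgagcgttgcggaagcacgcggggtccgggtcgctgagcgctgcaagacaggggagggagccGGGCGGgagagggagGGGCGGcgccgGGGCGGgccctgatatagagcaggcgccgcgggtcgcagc
TIMP3: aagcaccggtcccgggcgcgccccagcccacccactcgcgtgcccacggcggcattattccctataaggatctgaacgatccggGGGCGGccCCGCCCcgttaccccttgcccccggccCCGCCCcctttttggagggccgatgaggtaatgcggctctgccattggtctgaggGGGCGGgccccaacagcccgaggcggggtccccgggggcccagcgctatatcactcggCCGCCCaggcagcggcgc
MMP14: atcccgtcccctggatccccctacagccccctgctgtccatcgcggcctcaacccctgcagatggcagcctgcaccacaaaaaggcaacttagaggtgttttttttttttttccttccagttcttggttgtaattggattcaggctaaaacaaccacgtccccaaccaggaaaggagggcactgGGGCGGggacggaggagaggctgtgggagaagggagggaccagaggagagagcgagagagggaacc
PLAUR: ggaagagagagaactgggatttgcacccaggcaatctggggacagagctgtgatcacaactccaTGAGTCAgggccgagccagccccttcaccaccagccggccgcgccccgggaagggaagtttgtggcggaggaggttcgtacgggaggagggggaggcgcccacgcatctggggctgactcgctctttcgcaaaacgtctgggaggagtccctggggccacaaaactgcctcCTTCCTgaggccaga

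The SP1 letters occurred 5 times before TIMP3, 3 times before the downstream start of PLAU and 1 time before MMP14, 66 bases from its start. They occurred in 42.6% of all 35116 promoters of the table. PLAU also held the ETS letters 221 bases before that start, and 28.7% of all promoters held them. The PLAUR stretch held the AP-1 letters 186 bases and the ETS letters 15 bases before the start, and no SP1 letters. Of the members that did not pass at 48 h, TIMP1 held the SP1 letters 135 and 45 bases and ADAMTS3 44 bases before the start. TIMP1 also held the ETS letters 87 bases before its start. In all, 6.57% of all promoters held the AP-1 letters. The antioxidant response element core occurred in none of these 4 stretches. It occurred 168 bases before the upstream start of PLAU, whose stretch is not shown, and in 10.9% of all promoters. That upstream stretch held no SP1, ETS or AP-1 letters. TATAAA occurred before none of the 6 members in the table, against 10.7% of all promoters. A match is a run of letters and says nothing of binding.

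The arrays fell into 2 sets by the form of their values; whether these were run or processed apart is not stated. The 48 h values carry 2 decimals and the 0 to 24 h values 6, and their array medians ran from 7.68 to 7.76 and from 7.43 to 7.53, so levels of one set were never set against the other. The 3′ minus 5′ signal of ACTB, which rises as RNA degrades, reached 1.64 for DMSO and 1.24 for Thiamet-G at 4 h. It was 0.42 to 0.95 in the other arrays of 0 to 24 h and 0.15 to 0.39 at 48 h. The same signal of GAPDH was not raised in those DMSO and Thiamet-G arrays of 4 h. It read 0.23 in each, within the 0.11 to 0.27 of all arrays. Whether the RNA of these arrays was degraded was not tested. Of the mesenchymal and basal markers of the line, VIM at 14.94 to 15.02, AXL, CAV1, CD44 and ZEB1 lay above 89.5% or more of probe sets at 48 h, and SPARC, at 4.72 to 5.31, above 14.2%. Of the luminal markers, ESR1, ERBB3, CDH1 and FOXA1 lay above 40.5% or fewer, ESR1 at 7.01 to 7.28. KRT18, KRT8 and KRT19, also luminal, lay above 98.9%, 95.9% and 91.4%, and GATA3 above 70.9%, so the luminal markers were not all low. The mean log2 level of 10 fibroblast markers was 6.05 to 6.13 in the DMSO arrays, 6.06 to 6.20 with 5SGlcNAc and 6.14 to 6.20 with Thiamet-G. That of 6 endothelial markers was 6.27 to 6.31, 6.18 to 6.35 and 6.31 to 6.40, and that of 6 haematopoietic markers 5.68 to 5.85, 5.67 to 5.71 and 5.68 to 5.74; their part in the results was not tested. The table holds no detection calls, so a dim probe set cannot be called absent. Whether the replicates of 48 h came from separate cultures is not stated, and the p-values measure only how far these arrays spread, which can be technical. In bulk RNA, fewer cells and less RNA per cell cannot be told apart.

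At 48 h, 5SGlcNAc changed 11 of the 18 probe sets, covering 5 of the 9 genes, at a limma adjusted p under 0.05. PLAU, TIMP3 and MMP14 fell, with 9 probe sets lower, and ADAMTS1 and ADAMTS9 rose, with 2 probe sets higher. Over all probe sets tested, 5.57% passed as lower and 1.95% as higher, so that 74.0% of all calls were lower; that share was 61.9% after quantile normalization and 63.0% after median centring, while the members stayed at 9 lower and 2 higher under both. The arrays of the 2 groups did not overlap for 15 of the 18 probe sets, against 28.4% of all probe sets. The median difference was -0.26 on the log2 scale over the members and 0.007 over all probe sets. The members were chosen with earlier results of these data known, and probe sets of 1 gene are not independent. Their counts beside the shares of all probe sets, here and below, are therefore a description and not a test. Thiamet-G changed 4 of 18, with MMP14 lower in 2 probe sets and ADAMTS1 and ADAMTS9 higher, where 1.81% of all probe sets passed as lower and 0.289% as higher. Here 86.3% of all calls were lower, or 73.1% after quantile normalization and 74.1% after median centring, with 1 member lower and 2 higher under each. The count of 4 was 1 without Thiamet-G replicate 1, 5 without its replicate 2, and 2 without its replicate 3 or any DMSO replicate. The arrays did not overlap for 9 of 18, against 19.4% of all, and the medians were 0.03 and -0.01. Both comparisons use the same DMSO arrays.

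Between the inhibitors, 8 of 18 probe sets passed at 48 h, all lower with 5SGlcNAc than with Thiamet-G: MMP1, both of PLAU, all 4 of TIMP3 and ADAMTS1. Over all probe sets, 5.26% passed as lower and 4.72% as higher. The arrays did not overlap for 12 of 18, against 26.7% of all. The median difference was -0.14 over the members and 0.02 over all probe sets. The 2 compounds were given at different doses, so the values stand side by side for these doses.

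**Figure D1:**
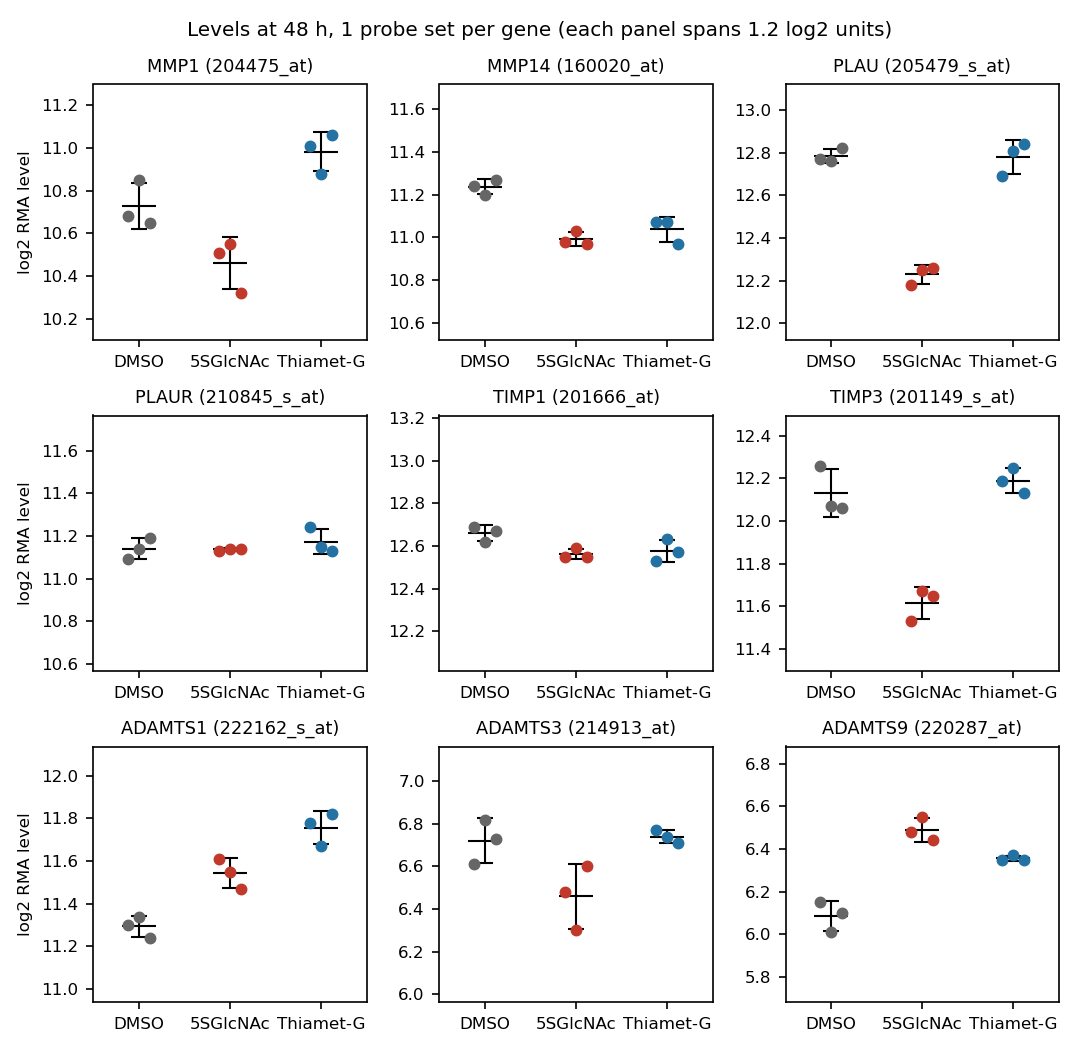
Log2 RMA levels at 48 h for the brightest probe set of each gene, with 1 point per array, the mean as a long bar and ± 1 SD as caps (n = 3 per treatment). PLAU and TIMP3 are low with 5SGlcNAc alone, MMP14 is low with both inhibitors, ADAMTS1 and ADAMTS9 are high with both, and MMP1 lies lowest with 5SGlcNAc and highest with Thiamet-G.

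Urokinase had the lowest adjusted p of the members for 5SGlcNAc against DMSO. For PLAU probe set 205479_s_at the DMSO arrays of 48 h read 12.77, 12.76 and 12.82, the 5SGlcNAc arrays 12.18, 12.25 and 12.26, and the Thiamet-G arrays 12.69, 12.81 and 12.84. Every 5SGlcNAc array lay below every other array, while Thiamet-G arrays fell around the DMSO arrays. PLAU fell by 0.55 with 5SGlcNAc (SE 0.0516, limma adjusted p = 0.000390), 1.47-fold, from 12.78 ± 0.032 to 12.23 ± 0.044 (SD, n = 3). With Thiamet-G it read 12.78 ± 0.079, a difference of -0.0033 from DMSO with a 95% interval of -0.12 to 0.11. The direct difference between the inhibitors was -0.55 (limma adjusted p = 0.000321). The other probe set, 211668_s_at, fell by 0.61 (limma adjusted p = 0.00132) from 11.27 ± 0.023 to 10.65 ± 0.050, and differed by -0.04 with Thiamet-G. Both probe sets kept the call under all 13 and 12 alternatives that could be run for them.

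The urokinase receptor was not called at 48 h. For PLAUR probe set 210845_s_at the DMSO arrays read 11.09, 11.14 and 11.19, the 5SGlcNAc arrays 11.13, 11.14 and 11.14, and the Thiamet-G arrays 11.24, 11.15 and 11.13, so the 3 groups overlapped. The difference from DMSO was -0.0033 with 5SGlcNAc, with a 95% interval of -0.11 to 0.10, and 0.03 with Thiamet-G, with an interval of -0.07 to 0.14. The probe sets 211924_s_at and 214866_at differed by 0.00 and -0.05 with 5SGlcNAc and by 0.07 and -0.05 with Thiamet-G. None of the 3 passed in any of the 3 comparisons of 48 h, and the lowest bound of the 3 intervals for 5SGlcNAc was -0.19.

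The metalloproteinases split. MMP14 was lower with both inhibitors: probe set 202827_s_at read 9.85, 9.73 and 9.76 with DMSO, 9.40, 9.38 and 9.42 with 5SGlcNAc and 9.36, 9.37 and 9.39 with Thiamet-G. No treated array reached the lowest DMSO array. It fell by 0.38 with 5SGlcNAc (SE 0.0448, limma adjusted p = 0.00142) and by 0.41 with Thiamet-G (limma adjusted p = 0.00704), and the inhibitors differed by 0.03, with a 95% interval of -0.07 to 0.13. Probe set 202828_s_at fell by 0.33 (limma adjusted p = 0.00291) and 0.27 (limma adjusted p = 0.0225). The second of these calls passed in only 3 of 12 alternatives; it was lost after quantile normalization or median centring, with only the 2 groups fitted, and without Thiamet-G replicate 1 or 3, or without any DMSO replicate (adjusted p up to 0.0879). The brightest probe set, 160020_at, fell by 0.24 with 5SGlcNAc (limma adjusted p = 0.0134), a call lost without 5SGlcNAc replicate 1 or DMSO replicate 3 (adjusted p up to 0.0575), and differed by -0.20 with Thiamet-G (limma adjusted p = 0.0642). The dimmest, 217279_x_at, whose suffix marks probes that can match other transcripts, differed by -0.18 and -0.26 and passed for neither. All 4 probe sets thus lay below DMSO with both inhibitors.

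MMP1, the collagenase, moved apart under the inhibitors. Its probe set 204475_at read 10.68, 10.85 and 10.65 with DMSO, 10.51, 10.55 and 10.32 with 5SGlcNAc, and 11.01, 10.88 and 11.06 with Thiamet-G. Every 5SGlcNAc array lay below, and every Thiamet-G array above, the 3 DMSO arrays. MMP1 differed from DMSO by -0.27 with 5SGlcNAc (SE 0.0796, limma adjusted p = 0.0792) and by 0.26 with Thiamet-G (limma adjusted p = 0.148), neither of which passed. The direct difference between the inhibitors, -0.52, did pass (limma adjusted p = 0.00369; 95% interval -0.70 to -0.34), and it passed under all 13 alternatives. Under the variance model with a trend and robust fitting, both differences from DMSO passed as well (limma adjusted p = 0.0160 and 0.0353).

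Of the inhibitors of these enzymes, TIMP3 fell with 5SGlcNAc and TIMP1 did not pass. TIMP3 probe set 201149_s_at read 12.26, 12.07 and 12.06 with DMSO, 11.53, 11.67 and 11.65 with 5SGlcNAc, and 12.19, 12.25 and 12.13 with Thiamet-G. The 5SGlcNAc arrays lay apart below both other groups, which overlapped. TIMP3 fell by 0.51 (SE 0.0668, limma adjusted p = 0.00234), 1.43-fold, and the probe sets 201147_s_at, 201150_s_at and 201148_s_at fell by 0.53, 0.55 and 0.48. For 201148_s_at all 3 arrays of 5SGlcNAc read 10.47, against 10.89 to 11.08 with DMSO. With Thiamet-G the 4 probe sets differed from DMSO by 0.06, 0.21, 0.20 and 0.17, and none passed (limma adjusted p = 0.180 to 0.686). Between the inhibitors TIMP3 was lower with 5SGlcNAc by 0.57, 0.73, 0.75 and 0.65 in the order given, and all 4 probe sets passed. Each TIMP3 call of 48 h held under every alternative run.

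TIMP1 read 12.69, 12.62 and 12.67 with DMSO, 12.55, 12.59 and 12.55 with 5SGlcNAc, and 12.53, 12.63 and 12.57 with Thiamet-G. The 5SGlcNAc arrays lay just under the DMSO arrays, and the Thiamet-G arrays overlapped both. The differences from DMSO were -0.10 (95% interval -0.20 to 0.0033, limma adjusted p = 0.235) and -0.08 (limma adjusted p = 0.372).

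ADAMTS1 and ADAMTS9 rose, and ADAMTS3 did not pass. ADAMTS1 read 11.30, 11.34 and 11.24 with DMSO, 11.61, 11.55 and 11.47 with 5SGlcNAc, and 11.78, 11.67 and 11.82 with Thiamet-G, so that the 3 groups were in 1 order with no overlap. It rose by 0.46 with Thiamet-G (SE 0.0572, limma adjusted p = 0.00922), 1.38-fold, and by 0.25 with 5SGlcNAc (limma adjusted p = 0.0293). The inhibitors differed by -0.21 (limma adjusted p = 0.0455). The Thiamet-G call was lost without Thiamet-G replicate 1 (adjusted p = 0.0507). The 5SGlcNAc call passed in 7 of 13 alternatives and the direct one in 5 of 13. The 5SGlcNAc call was lost without 5SGlcNAc replicate 1 or 2 or any DMSO replicate (adjusted p up to 0.111), and the direct one without any 5SGlcNAc replicate or Thiamet-G replicate 1 or 3, after median centring and with only the 2 groups fitted (up to 0.141), with differences of 0.22 to 0.29 and -0.26 to -0.18.

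ADAMTS9, a dim probe set, read 6.15, 6.01 and 6.10 with DMSO, 6.48, 6.55 and 6.44 with 5SGlcNAc, and 6.35, 6.37 and 6.35 with Thiamet-G. All treated arrays lay above all DMSO arrays. It rose by 0.40 with 5SGlcNAc (SE 0.0503, limma adjusted p = 0.00189), 1.32-fold, which held under all 12 alternatives, and by 0.27 with Thiamet-G (limma adjusted p = 0.0311). The latter was lost with trend and robust variance, with only the 2 groups fitted, and without Thiamet-G replicate 1 or 3 or any DMSO replicate (adjusted p up to 0.102). ADAMTS3, also dim, read 6.61, 6.82 and 6.73 with DMSO, 6.48, 6.30 and 6.60 with 5SGlcNAc, and 6.77, 6.74 and 6.71 with Thiamet-G. The 5SGlcNAc arrays were the 3 lowest. The difference from DMSO was -0.26 with 5SGlcNAc (limma adjusted p = 0.0842) and 0.02 with Thiamet-G, and that between the inhibitors was -0.28 (limma adjusted p = 0.0554); without 5SGlcNAc replicate 3 the first and the last passed, at -0.33 and -0.35 (limma adjusted p = 0.0439 and 0.0340). The last passed in 4 of 12 alternatives, also after median centring, with 1 probe set per gene and with trend and robust variance.

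**Figure D2:**
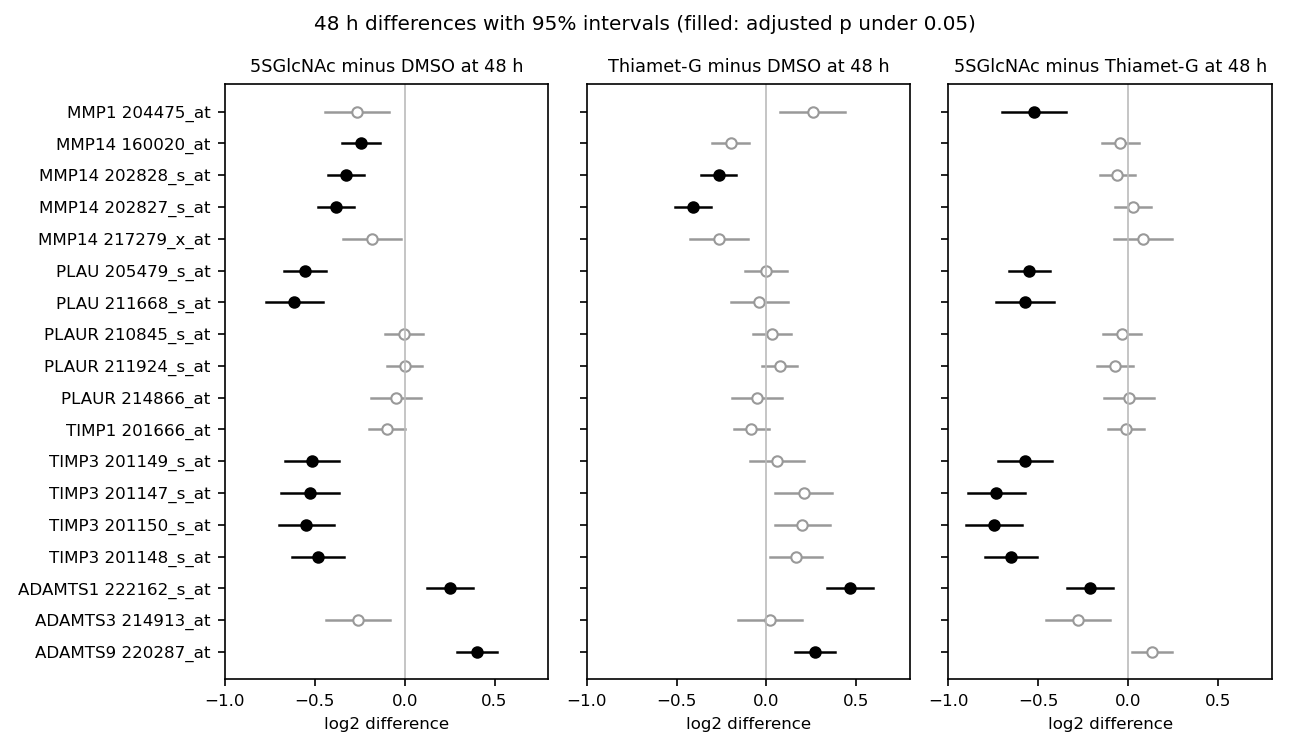
Log2 differences at 48 h for all 18 probe sets with 95% intervals, in 3 panels for 5SGlcNAc against DMSO, Thiamet-G against DMSO and 5SGlcNAc against Thiamet-G; filled points passed at a limma adjusted p under 0.05. PLAU and TIMP3 are filled and left of 0 in the first and last panels, MMP14 lies left of 0 in the first 2, and ADAMTS1 and ADAMTS9 are filled and right of 0 in the first 2.

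The wider families were counted with 1 probe set per gene, the brightest. Over all 11963 genes, 8.81% passed for 5SGlcNAc against DMSO and the median difference was 0.01. Of 6 measured inhibitors of metalloproteinases, 4 fell and none rose, with a median of -0.30. TIMP4 fell by 0.53 (limma adjusted p = 0.000991), from 7.38 ± 0.059 to 6.85 ± 0.10 (SD, n = 3), and TIMP2, named after its value was seen, fell by 0.27 (limma adjusted p = 0.0239). RECK, a membrane-anchored inhibitor, fell by 0.33 (limma adjusted p = 0.0415) by its brightest probe set, but only 1 of its 3 probe sets was lower, and the others reached 0.03. None of the 6 passed with Thiamet-G against DMSO, and 4 were lower with 5SGlcNAc than with Thiamet-G.

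Among 21 measured matrix metalloproteinases, 1 rose and 1 fell with 5SGlcNAc, and the median difference was 0.04. MMP2, the gelatinase that MMP14 activates, rose by 0.32 (limma adjusted p = 0.0155) from a dim 6.49 ± 0.11 to 6.81 ± 0.050 (SD, n = 3), and MMP14 was the one that fell. None passed with Thiamet-G against DMSO, where 2.52% of all genes passed; MMP14 is represented there by 160020_at, which did not pass. MMP1 was the only 1 of the 21 to pass between the inhibitors, where 11.6% of all genes passed.

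In the plasminogen activator system, 3 of 16 measured genes fell with 5SGlcNAc and 1 rose, with a median of 0.005. The shares of all genes given above for each comparison apply to these counts too. Beside PLAU, the tissue activator PLAT fell by 0.43 (limma adjusted p = 0.00221), from 12.06 ± 0.029 to 11.63 ± 0.085 (SD, n = 3), and read 12.11 ± 0.067 with Thiamet-G. MRC2, a collagen receptor that joins PLAUR at the surface, named after its value was seen, fell by 0.16 (limma adjusted p = 0.0475). That is the brighter of its 2 probe sets. SERPINE2, an inhibitor of plasminogen activators, rose by 0.29 (limma adjusted p = 0.00309), from 11.12 ± 0.025 to 11.42 ± 0.0058. None of the 16 passed with Thiamet-G against DMSO. Between the inhibitors PLAU, PLAT and SERPINE2 passed, by -0.55, -0.48 and 0.35. Of 10 measured ADAMTS proteases, 2 rose and none fell with either inhibitor against DMSO, and these were ADAMTS1 and ADAMTS9 both times.

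Over 2 to 24 h the times stood in for replicates, with 1 array per treatment and time. No member passed for 5SGlcNAc or Thiamet-G against DMSO, and 0% of all probe sets did with limma. In either direction, 870 and 1598 of all probe sets and 0 and 7 of the 18 members had an unadjusted limma p under 0.05. Between the inhibitors 0 of 18 members passed, against 0.0944% of all, and 7 members and 2423 of all probe sets had an unadjusted p under 0.05. ADAMTS1 with Thiamet-G lay above DMSO at each of the 5 times, by 0.52 at 2 h, 0.25 at 4 h, 0.09 at 6 h, 0.40 at 8 h and 0.50 at 24 h. Its mean difference was 0.35 (SE 0.0688, limma adjusted p = 0.246), and 0.01 with 5SGlcNAc. With a trend in the variance and robust fitting the Thiamet-G difference passed (limma adjusted p = 0.0134).

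The other members with 1 sign at all 5 times under Thiamet-G were MMP1 and ADAMTS9, above DMSO, 3 of the 4 TIMP3 probe sets, above it, and 2 of the 3 PLAUR probe sets, below it. MMP1 differed by 0.06 to 0.31, with a mean of 0.17 (limma adjusted p = 0.405). ADAMTS9 differed by 0.02 to 0.35, with a mean of 0.20 (limma adjusted p = 0.485). TIMP3 probe set 201150_s_at differed by 0.12 to 0.40 (mean 0.24, limma adjusted p = 0.391), and PLAUR probe set 211924_s_at by -0.40 to -0.07 (mean -0.19, limma adjusted p = 0.485). The PLAUR difference of -0.40 was that of 4 h, between the DMSO and Thiamet-G arrays with high ACTB ratios. All these differences use the same DMSO arrays. At 0 h the Thiamet-G array differed from DMSO by -0.19 for MMP1 and -0.10 for ADAMTS9. For TIMP3 201150_s_at and PLAUR 211924_s_at it differed by -0.03 and 0.001. The share of all probe sets with 1 sign at all 5 times was not counted. With 5SGlcNAc only TIMP3 probe set 201147_s_at kept 1 sign, at -0.22 to -0.00085.

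**Figure D3:**
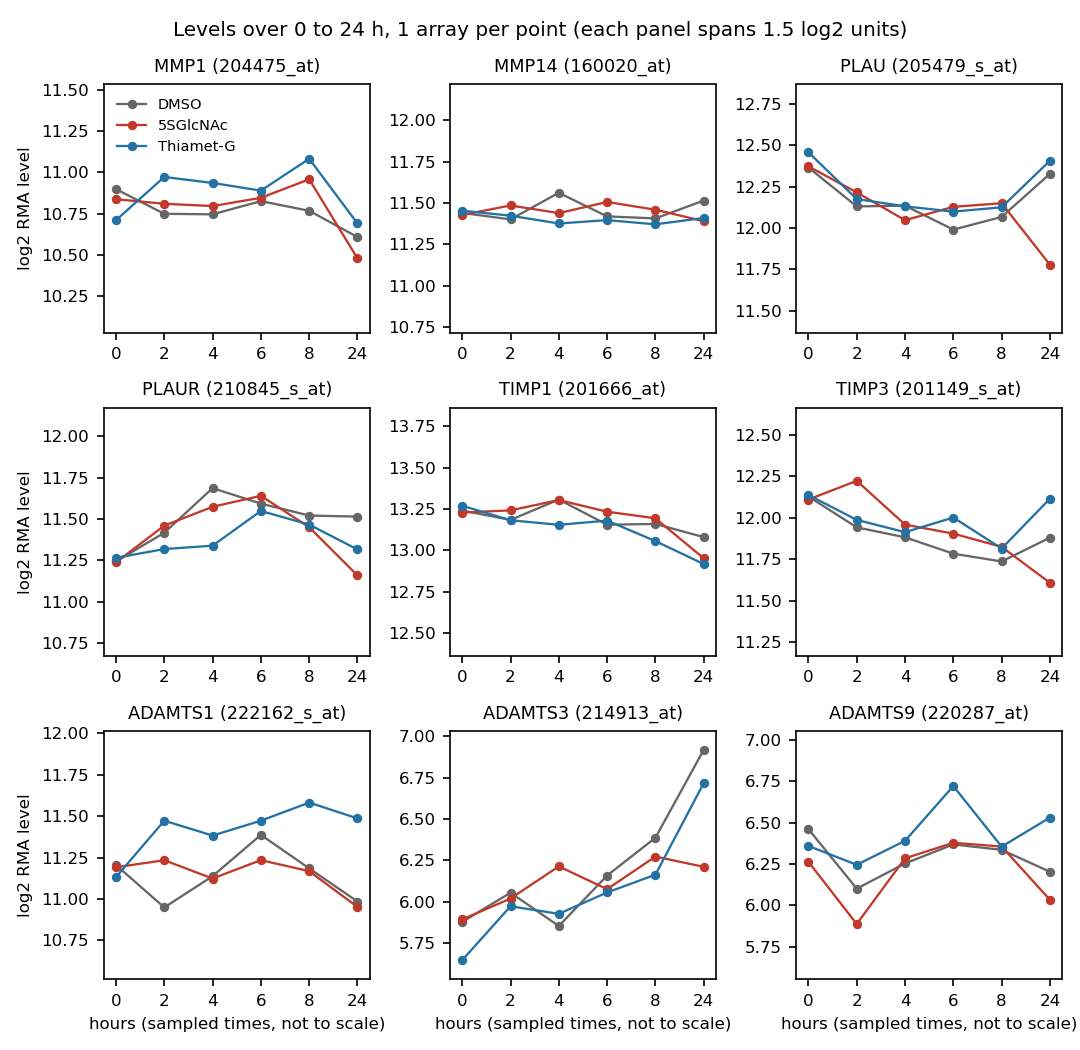
Log2 RMA levels of the brightest probe set of each gene over 0 to 24 h, 1 array per point, with sampled times evenly spaced. PLAU and TIMP3 with 5SGlcNAc lie lowest of the 3 series at 24 h, TIMP3 with 5SGlcNAc lies highest at 2 h (12.22 against 11.94 with DMSO), ADAMTS1 with Thiamet-G lies above from 2 h on, and ADAMTS3 climbs towards 24 h in the DMSO and Thiamet-G series.

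The single array of 24 h with 5SGlcNAc read lower than each earlier array of its series in both PLAU probe sets. PLAU 205479_s_at with 5SGlcNAc read 12.37, 12.22, 12.05, 12.13, 12.15 and 11.78 at 0, 2, 4, 6, 8 and 24 h. With DMSO it read 12.37, 12.13, 12.14, 11.99, 12.07 and 12.33, and with Thiamet-G 12.46, 12.18, 12.13, 12.10, 12.13 and 12.41. The 3 series lay together to 8 h, then DMSO and Thiamet-G returned towards their 0 h level while 5SGlcNAc did not. At 24 h the 5SGlcNAc array differed from DMSO by -0.55, and by -0.72 in 211668_s_at, against means of 0.05 and 0.06 over 2 to 8 h. This rests on single arrays and has no test. The 5SGlcNAc array of 24 h also had the lowest median of its set, 7.43.

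In TIMP3 201149_s_at that array, at 11.61, was also the lowest of its series, while at 2 h the 5SGlcNAc array lay 0.28 above DMSO. In 201147_s_at and 201148_s_at it read 10.86 and 10.54, close to the 10.91 and 10.55 of 8 h, and in 201150_s_at, at 10.49, it lay within the earlier range. For TIMP3 the 24 h differences from DMSO were -0.27, -0.22, -0.19 and -0.38 with 5SGlcNAc and 0.24, 0.32, 0.35 and 0.30 with Thiamet-G, in the order of probe sets given above. The inhibitors thus lay on opposite sides of DMSO in all 4 probe sets at that time. MMP14 differed by -0.12, -0.23, -0.31 and -0.23 with 5SGlcNAc for 160020_at, 202828_s_at, 202827_s_at and 217279_x_at. ADAMTS3 differed by -0.71 with 5SGlcNAc and by -0.20 with Thiamet-G. PLAUR differed by -0.36, -0.30 and -0.11 with 5SGlcNAc for 210845_s_at, 211924_s_at and 214866_at, and by -0.20, -0.27 and -0.06 with Thiamet-G. MMP1, TIMP1, ADAMTS1 and ADAMTS9 differed by -0.13, -0.13, -0.03 and -0.17 with 5SGlcNAc. Every member probe set thus lay below DMSO in this 5SGlcNAc array, also ADAMTS1 and ADAMTS9, which were higher than DMSO at 48 h. How many of all probe sets lay below DMSO in this array was not counted. Its median was 7.43, against 7.51 for the DMSO array of 24 h, so the count is not a result about the members.

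**Figure D4:**
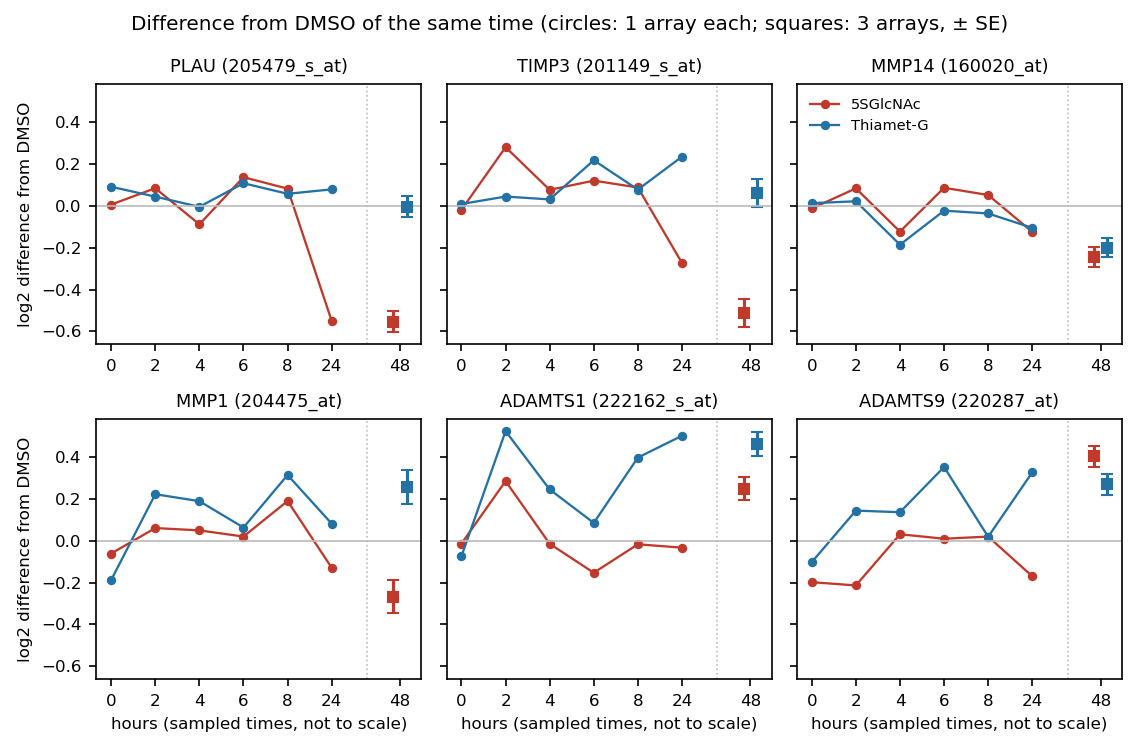
Log2 difference from DMSO of the same time for 6 genes; circles are single arrays of 0 to 24 h, and squares right of the dotted line are the 48 h differences over 3 arrays a group, ± 1 SE, from the other array set. PLAU with 5SGlcNAc is near 0 to 8 h, at -0.55 at 24 h and at -0.55 at 48 h, and MMP14 shows its largest differences with both inhibitors at 48 h.

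With time itself, few members changed over the 3 series. At 2 h against 0 h, 0 of 18 passed, with 0.462% of all probe sets and 1401 of them at an unadjusted p under 0.05, as were 3 members. At 4 h 1 of 18 passed, against 2.71% of all: PLAU 211668_s_at fell by 0.50 (limma adjusted p = 0.0435), a call lost without the DMSO array of 4 h, whose ACTB ratio was high (-0.41, adjusted p = 0.209). At 6 h 2 of 18 passed, against 3.35% of all. Both were PLAUR, which rose by 0.35 in 210845_s_at (limma adjusted p = 0.0318) and by 0.44 in 211924_s_at (limma adjusted p = 0.0127). In 210845_s_at the DMSO series read 11.24, 11.42, 11.69, 11.59, 11.52 and 11.51 over the 6 times, 5SGlcNAc 11.24, 11.46, 11.57, 11.64, 11.45 and 11.16, and Thiamet-G 11.26, 11.32, 11.34, 11.55, 11.47 and 11.32. In this probe set the 5SGlcNAc series was the one below its 0 h level at 24 h. The Thiamet-G series was the lowest at 4 h and reached its own highest level at 6 h. In the other PLAUR probe sets 5SGlcNAc was above its 0 h level at 24 h. It read 11.16 and 11.23 in 211924_s_at, and 9.19 and 9.43 in 214866_at.

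At 8 h 1 of 18 passed, against 4.65% of all: TIMP3 201148_s_at fell by 0.39 (limma adjusted p = 0.0425), which was lost without the DMSO array of 4 h (adjusted p = 0.0532), and the other TIMP3 probe sets differed by -0.33, -0.23 and -0.32. At 24 h 3 of 18 passed, against 7.84% of all. ADAMTS3 rose by 0.81 (limma adjusted p = 0.00196), 1.75-fold. It read 5.88 at 0 h and 6.92 at 24 h with DMSO, 5.65 and 6.72 with Thiamet-G, and 5.89 and 6.21 with 5SGlcNAc. TIMP1 fell by 0.26 (limma adjusted p = 0.0124), and PLAUR 214866_at rose by 0.29 (limma adjusted p = 0.0195). Every call of 4 to 24 h was lost on leaving out any 1 of the 3 series, except ADAMTS3, which passed without the 5SGlcNAc series at a difference of 1.05. Each series was sampled once at each time, and the fit takes out a constant difference between series. The spread behind these p-values is therefore how far the 3 series differ in their course over time. It mixes array noise with any effect of treatment that varies with time.

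The effect of 5SGlcNAc at 48 h was set against its mean effect over 2 to 24 h, each within its own array set. The difference passed for 6 of 18 probe sets, against 0.986% of all. These were 2 of MMP14, 3 of TIMP3 and ADAMTS9. MMP14 202827_s_at differed from DMSO by -0.38 at 48 h and 0.00044 over 2 to 24 h, TIMP3 201150_s_at by -0.55 and -0.01, and ADAMTS9 by 0.40 and -0.06. Each early mean holds the 24 h array. MMP14 202827_s_at differed by a mean of 0.08 over 2 to 8 h and by -0.31 at 24 h. For TIMP3 201150_s_at these were 0.03 and -0.19, and for ADAMTS9 -0.04 and -0.17. PLAU 205479_s_at, at -0.55 and -0.07, did not pass (limma adjusted p = 0.0699); its early mean holds the 24 h array. For Thiamet-G the difference passed for 0 of 18, against 0.0105% of all, or 2 probe sets, with 3 members and 1170 of all probe sets at an unadjusted p under 0.05 in limma. Its effect on ADAMTS1 was 0.46 at 48 h and 0.35 over 2 to 24 h, and on MMP14 202827_s_at -0.41 and -0.02.

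Genes whose levels ran most like a member's over the 18 arrays of 0 to 24 h were found by Pearson correlation. This is a description of arrays that share their sampled times. For PLAU they were EHD2, MBP and CDC25B, at 0.936, 0.893 and 0.859, and over the 9 arrays of 48 h the same pairs stood at 0.564, 0.956 and 0.804. For TIMP3 they were ANK1, NPAS2 and CCDC106, at 0.899, 0.879 and 0.873, and at 0.555, 0.928 and 0.0387 over the 48 h arrays. For MMP14 they were SDF2L1, ECHS1 and PSMD4, at 0.937, 0.886 and 0.882, and at 0.583, 0.459 and -0.366 over the 48 h arrays. For ADAMTS1 they were VRK2, RPL7 and CCNH, at 0.838, 0.809 and 0.803, and at 0.472, 0.794 and 0.422 over the 48 h arrays.

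For MMP1 the highest were PSME3, CDCA4 and RPL11, at 0.927, 0.915 and 0.889, and at -0.412, 0.229 and 0.715 over the 48 h arrays. For PLAUR they were NASP, GFOD1 and KLHL24, at 0.926, 0.916 and 0.902, and at 0.558, -0.251 and -0.234 over the 48 h arrays. For TIMP1 they were RABAC1, HLA-B and GSN, at 0.960, 0.953 and 0.949, and at 0.649, 0.444 and 0.829. For ADAMTS3 they were PDLIM3, NCBP2 and ADD3, at 0.907, 0.905 and 0.901, and at 0.822, 0.0342 and 0.752. For ADAMTS9 they were CLIC5, COL1A2 and ZFP37, at 0.795, 0.788 and 0.781, and at 0.643, -0.233 and 0.409. The pairs of PLAU with MBP and of TIMP3 with NPAS2 were the ones among all these pairs that stood above 0.9 over the 48 h arrays, and several pairs turned negative there.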

How the data were processed

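The values are the log2 levels the authors deposited for each probe set; the submitters' processing notes name RMA, without a version. RMA corrects background, brings the arrays to one distribution and combines each set's probes, so a change moving most genes one way can be hidden. The table held 22277 probe sets, of which 62 were controls. The platform annotation named 1 gene for 19064, several for 1043 and none for 2108; the last 2 kinds were not used. Array probe positions and the scanner files were not analysed here.

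Tests used limma 3.58.1 (lmFit, eBayes; R 4.3.3) on every probe set naming 1 gene. They were two-sided, with p-values adjusted by Benjamini-Hochberg over 19064 at 0.05 and no filter on dim probe sets. The 9 arrays of 48 h shared 1 spread. Over 2 to 24 h time was a block; against 0 h the treatment series was a block; effects of 48 h and of 2 to 24 h were compared in 1 fit of 24 arrays with each time as a block. The scripts were tested on simulated data. The 13 comparisons share arrays. Named genes were the members, up to 3 changed genes with the largest difference from each list in each 48 h comparison, and the 3 genes most correlated with each member over 18 arrays. The members and lists were chosen with earlier results of these data known.

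Alternatives were quantile normalization, median centring, leaving out probe sets under the 40th percentile, 1 probe set per gene, trend and robust variance, only the 2 groups compared, the replicate number as a block, and leaving out each array of 48 h, each time, each series or the DMSO array of 4 h. Whether the replicate numbers pair the 48 h arrays is not stated. Same-numbered arrays had correlations of their deviations of -0.32 to 0.18, not all above 0.1, which cannot decide it. With the replicate number as a block, the ADAMTS1 calls for 5SGlcNAc against DMSO and between the inhibitors were also lost. So were the calls of ADAMTS9 and MMP14 202828_s_at for Thiamet-G against DMSO. The number of arrays limits the precision.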

Additional observations from a re-analysis of the deposited data

Results flagged for a closer look

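The effect of 5SGlcNAc at 48 h differed from its mean effect over 2 to 24 h, by a limma test of the difference itself, for 6 probe sets. The difference was -0.32 for MMP14 202828_s_at (adjusted p = 0.0444) and -0.38 for MMP14 202827_s_at (adjusted p = 0.0324), the latter lost without the DMSO array of 4 h (adjusted p = 0.0564). For TIMP3 it was -0.57 for 201149_s_at (adjusted p = 0.0231), -0.46 for 201147_s_at (adjusted p = 0.0342) and -0.54 for 201150_s_at (adjusted p = 0.0122). The fourth TIMP3 probe set, 201148_s_at, gave -0.37 and did not pass (adjusted p = 0.183). ADAMTS9 gave 0.47 (adjusted p = 0.0181). The mean over 2 to 24 h holds the 24 h array, which lay below DMSO for each of these probe sets. The effects come from 2 array sets that differ in decimals and medians, and time and array set cannot be told apart in this comparison.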

How the results depend on the processing

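For 5SGlcNAc against DMSO at 48 h, 9 to 12 of the member probe sets passed on leaving out 1 array (11 with all), and 5 of 9 when 1 probe set per gene was tested; for 5SGlcNAc against Thiamet-G the counts were 7 to 8 (8 with all) and 5 of 9. For Thiamet-G against DMSO, 4 became 7 with trend and robust variance, 2 with only the 2 groups and 1 to 5 on leaving out 1 array. With the replicate block 10, 2 and 7 members passed in these 3 comparisons, and 940, 49 and 1309 of all probe sets, against 1433, 401 and 1902. Over all probe sets the Thiamet-G count was 201 after quantile normalization, 158 after median centring, 947 without dim probe sets, 1073 with trend and robust variance, 25 with only the 2 groups and 39 to 691 on leaving out 1 array. The 5SGlcNAc count was 2177 with trend and robust variance and 691 to 1094 on leaving out 1 array, and that between the inhibitors 1189 with only the 2 groups and 976 to 2336 on leaving out 1 array.

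Over 2 to 24 h, trend and robust variance gave 1 member for Thiamet-G against DMSO and 2 between the inhibitors, and leaving out dim probe sets gave 1 for the latter. Over all probe sets these settings gave 18 and 189, and 52, and leaving out 1 time gave 0 to 10 between the inhibitors. At 4 h, 3 members passed under each normalization, 4 without dim probe sets, 4 with trend and robust variance, and 0 with 1 probe set per gene, without any series or without the DMSO array of 4 h. At 6 h, 1 passed with 1 probe set per gene, 4 with trend and robust variance and 0 without any series. At 8 h, 4 passed after quantile normalization, 3 after median centring, 4 without dim probe sets, 6 with trend and robust variance, and 0 with 1 probe set per gene or without any series. At 24 h, 0, 1 and 0 passed without the DMSO, 5SGlcNAc and Thiamet-G series. For the 5SGlcNAc effect of 48 h against 2 to 24 h, 2 of 9 passed with 1 probe set per gene. Over all probe sets, the counts at 2, 4, 6 and 8 h (88, 517, 638 and 886) became 149, 788, 1122 and 1488 without dim probe sets and 156, 777, 1109 and 1512 with trend and robust variance. Without 1 series they were 0 to 30, 0 to 183, 5 to 95 and 0 to 42, and 287 to 461 at 24 h, from 1495; without the DMSO array of 4 h, 141 passed at 4 h. The 188 of the 5SGlcNAc effect of 48 h against 2 to 24 h became 371 and 395 under the first 2 settings, and the 2 of Thiamet-G became 0 to 1. Between the inhibitors over 2 to 24 h, 31 passed with 1 probe set per gene, from 18. Leaving out a series or array leaves fewer arrays; other causes were not tested.

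In 16 cases an alternative changed the sign of a member's difference, to a value of 0.043 or less in size; they concern 8 differences. For 5SGlcNAc against DMSO, PLAUR 210845_s_at became 0.015 under quantile normalization and 0.023 under median centring, and ran from -0.028 to 0.022 on leaving out 1 array, where PLAUR 214866_at ran from -0.11 to 0.0067. For Thiamet-G against DMSO, PLAU 205479_s_at became 0.037 after median centring; on leaving out 1 array it ran from -0.033 to 0.042, PLAU 211668_s_at from -0.11 to 0.043, PLAUR 214866_at from -0.12 to 0.0033 and ADAMTS3 from -0.035 to 0.070. Between the inhibitors, TIMP1 became 0.011 after quantile normalization and ran from -0.037 to 0.013, and PLAUR 214866_at became -0.010 after median centring and ran from -0.023 to 0.022. No alternative reversed a called difference.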

Other observations

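Cell-surface relatives of these enzymes and the factors that bind AP-1 and ETS sites were counted the same way at 48 h, with 1 probe set per gene. Of 11 measured ADAM proteases, 2 fell and none rose with 5SGlcNAc against DMSO, or 18.2% against 8.81% of all genes, with a median difference of 0.06 against 0.01 over all genes. ADAM8, a sheddase of leukocytes and tumour cells, fell by 0.56 (limma adjusted p = 0.00142), from 9.70 ± 0.042 to 9.14 ± 0.12 (SD, n = 3). The other of its 2 probe sets differed by -0.17 and did not pass. ADAM19 fell by 0.20 (limma adjusted p = 0.0279), with its other probe set in the opposite direction. None of the 11 passed with Thiamet-G against DMSO.

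Of 15 measured AP-1 and ETS factors, 3 fell and 1 rose with 5SGlcNAc, or 26.7% against 8.81% of all genes, with a median of -0.09 against 0.01. ETV1 fell by 0.60 (limma adjusted p = 0.000768), from 10.11 ± 0.097 to 9.50 ± 0.029 (SD, n = 3), with all 5 of its probe sets in that direction. ETV4 fell by 0.32 (limma adjusted p = 0.0115) and FOSL2 by 0.34 (limma adjusted p = 0.00780), the latter with 2 of 3 probe sets in that direction. ATF3, a stress-induced factor, rose with both inhibitors, by 0.54 with Thiamet-G (limma adjusted p = 0.00715) and by 0.29 with 5SGlcNAc (limma adjusted p = 0.0239). It was the only 1 of the 15 to pass with Thiamet-G against DMSO.

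Among markers of other cells, PECAM1 fell by 0.33 with 5SGlcNAc (limma adjusted p = 0.0423), from a dim 6.93. All 3 of its probe sets were lower, and 1 passed. The luminal keratin KRT19 fell by 0.42 (limma adjusted p = 0.00156). No fibroblast or haematopoietic marker passed against DMSO with either inhibitor. Between the inhibitors, LUM was lower with 5SGlcNAc by 0.95, LYZ by 0.39, CAV1 by 0.25, PECAM1 by 0.41, KRT19 by 0.46 and CDH1 by 0.34. LUM, LYZ and CDH1 were dim, at 5.76, 5.04 and 6.07 with 5SGlcNAc. Of the 6 mesenchymal line markers CAV1 was the one that passed between the inhibitors, and none passed against DMSO.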
